A study of Mus musculus with 6 samples.

Results

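The genes described here are 40 named members of the autophagy pathway, from the kinases that start an autophagosome to the cargo receptors it takes up, together with the 4 MiT/TFE transcription factors Tfeb, Tfe3, Mitf and Tfec. They were taken by symbol, by summing the counts of each gene's annotated transcripts (GENCODE M21, mouse build GRCm38), and stand among 55263 genes with deposited counts. Poly-A RNA-seq was done on bone marrow-derived macrophages, cells grown from the marrow of mice labelled wild type. The 3 groups of 2 libraries each were untreated control cells, cells given LPS (lipopolysaccharide, the bacterial membrane component that TLR4 senses), and cells given LPS and HACA together. HACA is not spelled out in the labels, which also give no strain, age, dose or time, and the title of the series concerns a nanomedicine built from hyaluronic acid and a psoriasis model. Nothing in the labels says that the libraries of a group came from separate animals or cultures, so each p-value measures the spread between these libraries, which may be technical. Fewer cells of a type and less RNA per cell cannot be told apart in such bulk samples.

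Autophagy encloses cytoplasm in a double membrane and delivers it to the lysosome. The ULK kinase complex starts the process, a PI3-kinase complex marks the membrane with PI3P, lipid carriers enlarge it, a ubiquitin-like conjugation system attaches ATG8 proteins to it, and cargo receptors tether protein aggregates, organelles and bacteria to those ATG8 proteins. MiT/TFE factors bind E-box sequences in autophagy and lysosome genes, and the nutrient-sensing kinase mTORC1 holds TFEB in the cytoplasm. In macrophages autophagy takes part in clearing bacteria and in limiting inflammatory signalling.

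Total counts were 12529874 to 15379496 per library, and 13883 to 16642 genes had at least 10 counts, with the 2 LPS libraries the lowest. Genes annotated as misc_RNA held 24.34% to 29.21% of the counts. All 9 macrophage markers were detected, with a summed level of 31610 to 54552 CPM per library (counts relative to the TMM-scaled library size), almost all of it Lyz2. Some were low, with Adgre1, which encodes F4/80, at 0.394 to 0.674 CPM, Itgam at 0.193 to 1.82 CPM and Cd68 at 3.25 to 7.03 CPM. Some markers of other cells were absent: 3 of 5 T and NK cell genes, 2 of 6 neutrophil genes, 2 of 6 osteoclast genes and 1 of 4 B cell genes were at 0 in every library. Others were present, with the osteoclast gene Ctsk at 11.8 to 18.1 CPM. CPM takes no account of gene length or of bases shared between transcripts, so it does not rank the levels of different genes. The dendritic cell gene Itgax was at 11.5 to 46.2 CPM and the B cell gene Ighm at 2.70 to 12.1 CPM. The 4 stromal genes summed to 32.2 to 49.6 CPM in replicate 1 of each group and to 1.35 to 1.93 CPM in replicate 2. The 8 cell cycle genes were likewise higher in replicate 1, at 675 CPM against 142 CPM in control, 1836 CPM against 1005 CPM in LPS and 1345 CPM against 334 CPM in LPS+HACA. The sum of the 6 dendritic cell genes rose with LPS, at 19.4 and 26.4 CPM in control, 47.2 and 73.0 CPM in LPS and 22.9 and 31.3 CPM in LPS+HACA. Itgax and Xcr1 made up most of that rise, and Ccr7 rose at a low level. Flt3, Zbtb46 and Siglech overlapped between control and LPS. The 4 B cell genes summed to 3.15 and 3.76 CPM in LPS and to 8.25 to 13.6 CPM in the other groups. The part of these marker genes in the results was not tested.

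With LPS, the transcription factor genes of the MiT/TFE family split: Tfeb fell 5.52-fold while Tfec rose 8.54-fold and Mitf 2.64-fold. The cargo receptor genes split as well, with Nbr1 lower by 10.6-fold, and Sqstm1 and Tax1bp1 higher by 9.08-fold and 2.05-fold. Among the core machinery, Ulk1, Atg2b, Pik3r4, Uvrag, Atg7 and Atg4c fell. When HACA was given with LPS, Nbr1 was 5.95-fold and Tfeb 5.25-fold above LPS alone, and Tfec was 3.79-fold below it. No member passed the test between LPS+HACA and control.

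The first comparison asks what LPS changes in these cells. Of the 40 genes, 39 had enough counts to be tested and Map1lc3a did not. At an adjusted p under 0.05 (edgeR quasi-likelihood test, Benjamini-Hochberg adjustment over 17113 genes), 12 of the 39 were called, or 30.8%, 4 higher and 8 lower. Over all genes tested, 30.1% were called, 15.9% higher and 14.3% lower, so the share of members called was near that of any gene. Control and LPS libraries stood apart without overlap for 29 of the 39 members, 14 higher and 15 lower in LPS, against 66.7% of all genes. The median log2 difference was -0.03 over the members and -0.05 over all genes. Scaled by library totals, without TMM factors, the median of all genes moved to -0.69, and 21.7% of all calls were increases in place of 52.6%, with 2 members higher and 15 lower. Directions below are therefore relative to the bulk of genes. Without control replicate 1 only 4 members were called (Tfec higher, and Atg4c, Nbr1 and Tfeb lower), and without control replicate 2 also 4 (Tfec higher, and Nbr1, Tfeb and Ulk1 lower).

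The second comparison asks what HACA changes in cells given LPS, and shares the LPS libraries with the first. A change with HACA below means LPS+HACA against LPS. The test called 3 of the 39 members, or 7.69%, with Nbr1 and Tfeb higher and Tfec lower. Of all genes, 13.4% were called, 5.74% higher and 7.67% lower, so members were called no more often than other genes. Libraries did not overlap for 17 members, 10 higher and 7 lower, against 57.7% of all genes. The members' median was 0.09 and that of all genes 0.06. By library totals the median of all genes was 0.70, 87.0% of all calls were increases in place of 42.8%, and 10 members were called higher and 1 lower. Without LPS+HACA replicate 1 only Nbr1 was called, without LPS+HACA replicate 2 Nbr1 and Tfec, and without LPS replicate 1 there were 5 members higher and 1 lower. Comparing LPS+HACA with control, which shares libraries with both, gave 0 called members in edgeR and in DESeq2, with 3 at an unadjusted p under 0.05, against 1.15% of all genes called, 0.894% higher and 0.257% lower. In that comparison the libraries did not overlap for 19 members, 8 higher and 11 lower, against 46.5% of all genes.

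**Figure D1:**
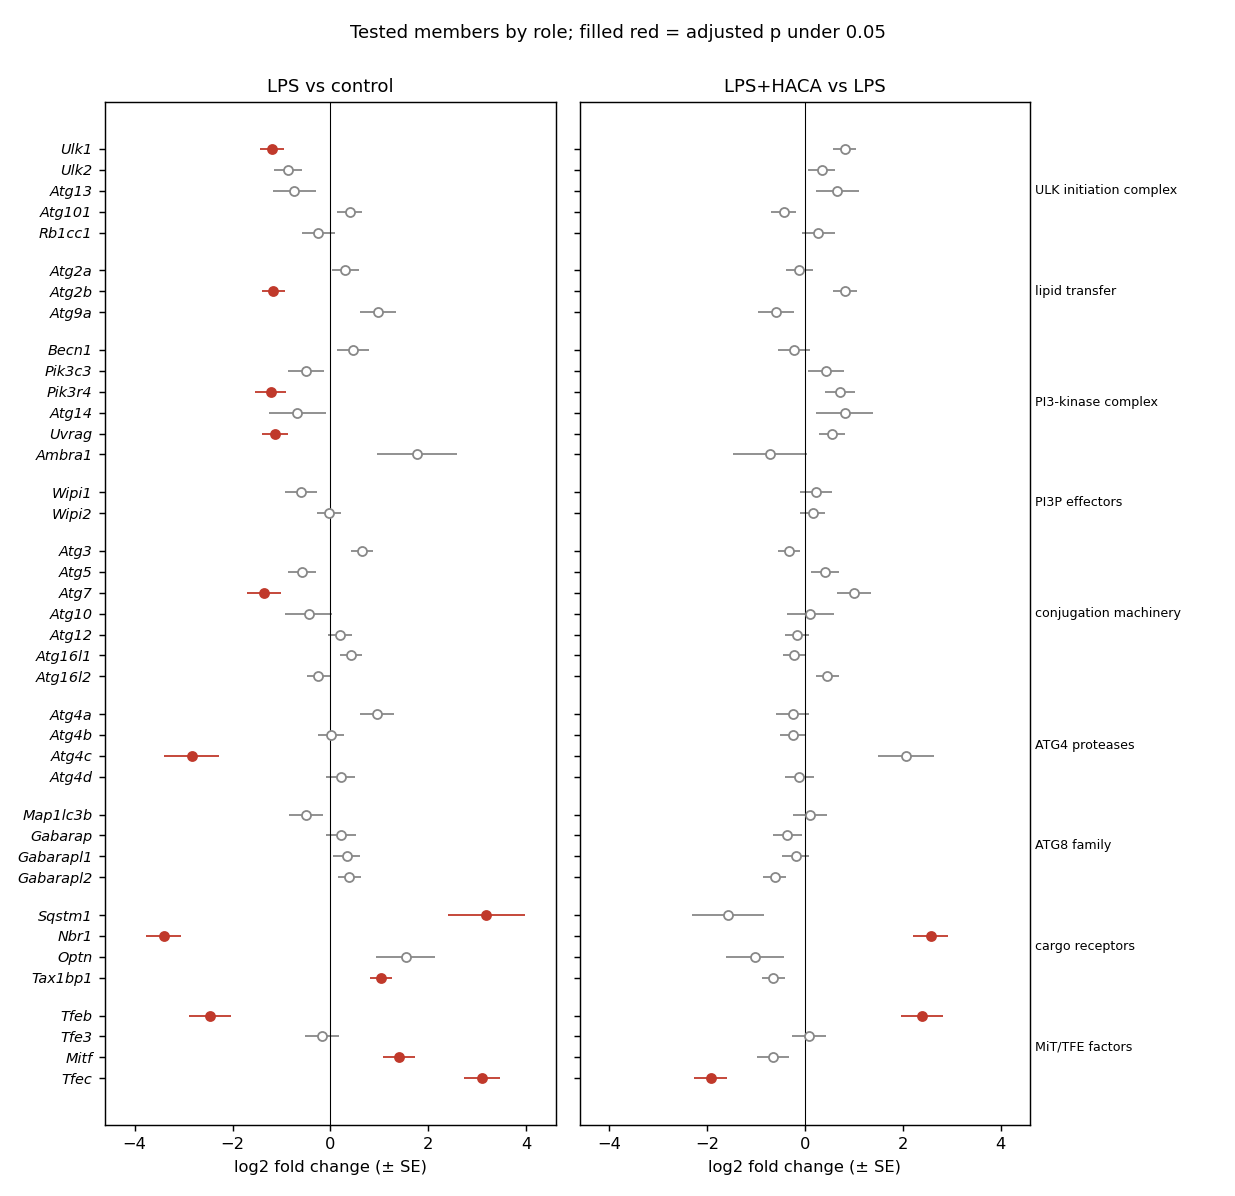
Log2 fold change of each tested member (points, bars show ± SE) for LPS against control and for LPS+HACA against LPS, in role groups, with members at an adjusted p under 0.05 filled red. In the left panel the 12 filled points run from -3.40 for Nbr1 to 3.18 for Sqstm1, and in the right panel Nbr1, Tfeb and Tfec are filled.

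The promoters of the 3 genes called in both comparisons, and of the conjugation gene Atg3 with its E-boxes, are shown because they are the sequences on which MiT/TFE factors, AP-1, NF-kB and interferon factors could be looked for. Each run is 250 bases before and 20 after an annotated start (RefSeq, GRCm38.p6), 5′ to 3′ on the gene's strand, and capitals mark the E-box core CACGTG or, in Nbr1, a word of interferon response elements. They lie at chr17:47736787-47737056 (plus strand) for Tfeb, chr6:16898422-16898691 (minus strand) for Tfec, chr11:101551857-101552126 and chr11:101552404-101552673 (plus strand) for the upstream and downstream starts of Nbr1, and chr16:45158579-45158848 (plus strand) for Atg3. Tfeb has 3 windows in the table, of which the most upstream is shown.
Tfeb: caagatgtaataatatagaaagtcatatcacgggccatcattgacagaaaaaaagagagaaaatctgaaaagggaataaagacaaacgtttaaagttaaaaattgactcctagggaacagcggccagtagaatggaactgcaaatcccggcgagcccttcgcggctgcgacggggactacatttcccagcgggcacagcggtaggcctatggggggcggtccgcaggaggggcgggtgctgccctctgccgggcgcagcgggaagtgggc
Tfec: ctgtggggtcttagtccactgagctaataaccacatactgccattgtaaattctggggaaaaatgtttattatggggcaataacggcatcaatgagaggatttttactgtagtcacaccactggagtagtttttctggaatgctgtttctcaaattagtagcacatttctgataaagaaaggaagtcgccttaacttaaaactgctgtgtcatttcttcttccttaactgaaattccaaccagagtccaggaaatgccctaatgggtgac
Nbr1 upstream start: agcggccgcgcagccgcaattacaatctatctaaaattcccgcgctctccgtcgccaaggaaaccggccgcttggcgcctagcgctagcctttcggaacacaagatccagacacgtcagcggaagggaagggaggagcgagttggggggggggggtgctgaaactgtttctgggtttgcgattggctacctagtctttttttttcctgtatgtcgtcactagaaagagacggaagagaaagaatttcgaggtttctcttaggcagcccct
Nbr1 downstream start: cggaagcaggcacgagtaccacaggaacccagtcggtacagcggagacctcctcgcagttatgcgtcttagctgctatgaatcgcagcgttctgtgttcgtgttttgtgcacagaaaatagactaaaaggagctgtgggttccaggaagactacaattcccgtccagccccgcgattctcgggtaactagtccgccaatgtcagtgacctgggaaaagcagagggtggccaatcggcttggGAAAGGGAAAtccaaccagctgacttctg
Atg3: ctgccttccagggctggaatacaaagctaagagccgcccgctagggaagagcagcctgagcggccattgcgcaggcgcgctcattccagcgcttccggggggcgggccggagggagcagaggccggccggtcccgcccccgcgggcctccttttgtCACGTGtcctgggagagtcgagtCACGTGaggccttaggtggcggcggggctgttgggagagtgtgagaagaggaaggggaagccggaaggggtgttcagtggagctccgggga
None of the 3 Tfeb windows, the Tfec window and the upstream Nbr1 window holds any of the words searched, the downstream Nbr1 window holds GAAAGGGAAA beginning 9 bases before its start, and Atg3 holds CACGTG at 94 and 71 bases before its start.

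Of the 40 genes, 34 had a promoter in the reference table, and each window was searched on both strands over 250 bases before and 50 after the start. CACGTG was found in 4 of the 34 genes (Atg14, Atg3, Atg5 and Atg7), or 11.8%, and in 8.09% of 27025 genes in the table. The longer form TCACGTGA, which contains CACGTG, was found in Atg3 and in 1.13% of all genes, and the CLEAR consensus, GT before and AC after CACGTG, which contains both, in no member and 0.37% of all genes. The AP-1 word TGANTCA was in Tfe3 and in 8.97% of all genes, a word of interferon response elements, GAAA and GAAA with any 2 bases between, in Nbr1 and in 3.99%, and an NF-kB-like word, GGGA and TTTCC with any base between, in no member and 0.466%. Of the 4 genes with CACGTG, Atg7 fell with LPS while Atg14, Atg3 and Atg5 did not pass the test. The Atg7 window belongs to a RefSeq start inside the gene, where no GENCODE transcript of Atg7 begins.

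Among the MiT/TFE factors, Tfeb (chr17:47737030-47792419), the best studied activator of lysosome and autophagy genes, was at 24.4 and 34.1 CPM in control, 2.96 and 7.61 CPM in LPS and 25.7 and 29.9 CPM in LPS+HACA. Both LPS libraries lay below all 4 others, and the LPS+HACA values fell within the range of control. Its log2 difference was -2.46 ± 0.43 (SE, adjusted p = 0.00474, edgeR) for LPS against control and 2.39 ± 0.43 (adjusted p = 0.014) for LPS+HACA against LPS. Against control, LPS+HACA gave -0.07 ± 0.40 (adjusted p = 0.987). Of the 12 Tfeb transcripts with at least 20 counts, 11 were lower in LPS than in control with no overlap, and all 12 were higher in LPS+HACA than in LPS. Protein-coding transcripts held 89.8% of its counts and gave 21.96 and 29.5 CPM in control, 2.96 and 7.32 CPM in LPS and 23.3 and 27.2 CPM in LPS+HACA. The second call was lost without LPS+HACA replicate 1 (adjusted p = 0.050002) or replicate 2 (adjusted p = 0.0506).

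Tfec (chr6:16833373-16898441), a family member largely restricted to macrophages, went the other way. It was at 12.1 and 18.7 CPM in control, 156 and 107 CPM in LPS and 26.5 and 42.8 CPM in LPS+HACA. The 3 groups did not overlap, and LPS+HACA stood between the other 2. The log2 difference was 3.09 ± 0.36 for LPS against control (adjusted p = 0.000892, edgeR) and -1.92 ± 0.34 for LPS+HACA against LPS (adjusted p = 0.0136). LPS+HACA against control gave 1.17 ± 0.34 (adjusted p = 0.193). All 4 of its transcripts with at least 20 counts were higher in LPS and lower again in LPS+HACA with no overlap, both the protein-coding ones, which held 23.0% of its counts, and the retained-intron ones, which held 77.0%. Without LPS+HACA replicate 1 the second difference was -1.59 and was not called (adjusted p = 0.0916).

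Mitf (chr6:97807052-98021349), a regulator of osteoclast, mast cell and melanocyte genes, was at 116 and 155 CPM in control, 275 and 440.2 CPM in LPS and 173 and 283 CPM in LPS+HACA. LPS lay above control in both libraries, while LPS+HACA overlapped LPS. It rose by 1.40 ± 0.33 on the log2 scale with LPS (adjusted p = 0.0155), and LPS+HACA against LPS gave -0.65 ± 0.32 (adjusted p = 0.218). The transcript Mitf-202 alone gave 1.44 ± 0.31 (adjusted p = 0.00576). The LPS call of the gene was lost without control replicate 1 (adjusted p = 0.128), control replicate 2 (0.0646) or LPS replicate 2 (0.0512), and by library totals (0.73, adjusted p = 0.0867). Tfe3 (chrX:7762560-7775202), a relative of Tfeb with overlapping targets, was at 54.7 and 69.6 CPM in control, 39.1 and 70.9 CPM in LPS and 45.4 and 71.7 CPM in LPS+HACA. All 3 groups overlapped, and replicate 2 was the higher in each. Its log2 difference was -0.18 ± 0.35 with LPS (adjusted p = 0.741) and 0.09 ± 0.35 for LPS+HACA against LPS (adjusted p = 0.889). Retained-intron transcripts held 96.6% of the Tfe3 counts, so its protein-coding transcripts were barely measured.

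**Figure D2:**
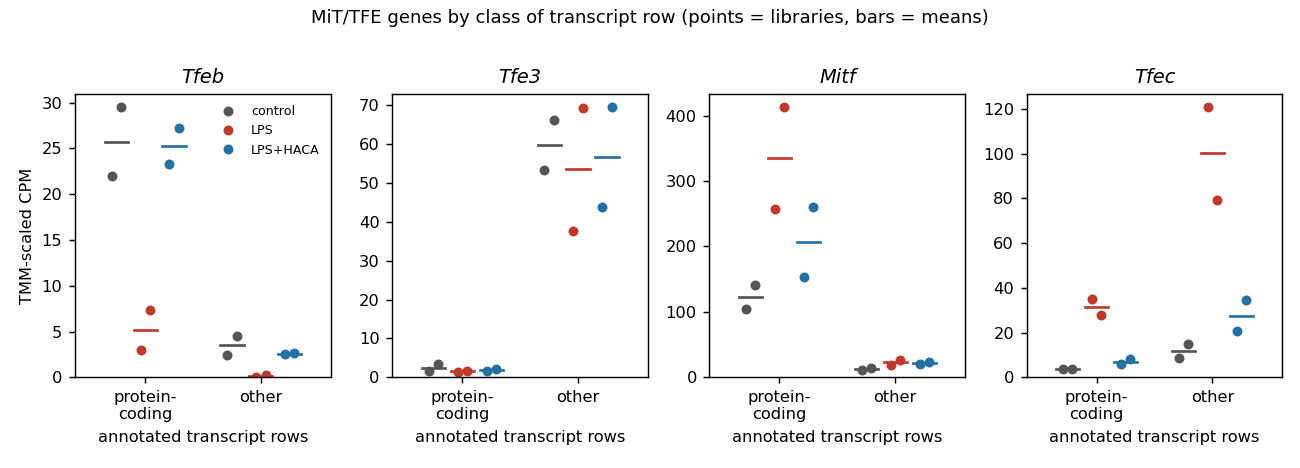
TMM-scaled CPM of the 4 MiT/TFE genes, split into protein-coding and other annotated transcripts (points are libraries, bars are group means, each panel has its own linear axis from 0). For Tfeb the protein-coding points of LPS sit at 2.96 and 7.32 CPM, below the control and LPS+HACA points, and for Tfec both classes are highest in LPS.

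With LPS the cargo receptor genes gave the largest difference among the members in each direction. Nbr1 (chr11:101552149-101581951), a receptor for ubiquitinated proteins and peroxisomes, was at 17.5 and 14.6 CPM in control, 1.08 and 1.93 CPM in LPS and 9.17 and 8.86 CPM in LPS+HACA. The reads behind them numbered 279 and 220 (control), 11 and 20 (LPS), and 151 and 131 (LPS+HACA). The 3 groups did not overlap, with LPS lowest and LPS+HACA in the middle. The log2 difference was -3.40 ± 0.36 with LPS (adjusted p = 0.000602, edgeR), 2.57 ± 0.35 for LPS+HACA against LPS (adjusted p = 0.00668) and -0.83 ± 0.31 for LPS+HACA against control (adjusted p = 0.331). All 8 of its transcripts with at least 20 counts were lower in LPS with no overlap, and 7 of them were higher in LPS+HACA than in LPS. Retained-intron transcripts held 79.7% of its counts and protein-coding ones 4.80%. With protein-coding transcripts alone the LPS+HACA difference from LPS was 2.85 ± 1.16 and was not called (adjusted p = 0.155).

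Sqstm1 (chr11:50199366-50210827) encodes p62, the receptor that collects ubiquitinated cargo and binds KEAP1. It was at 18.3 and 25 CPM in control, 88.7 and 304.2 CPM in LPS and 34.6 and 98.2 CPM in LPS+HACA. LPS lay above control, but its libraries differed widely from each other and overlapped LPS+HACA, and replicate 2 was the higher in every group. It rose by 3.18 ± 0.78 on the log2 scale with LPS (adjusted p = 0.0321), and LPS+HACA against LPS gave -1.57 ± 0.74 (adjusted p = 0.219). Within each replicate number LPS+HACA was below LPS. DESeq2 called this difference (-1.60 ± 0.61, adjusted p = 0.0486). So did edgeR with the replicate number as a block (-1.51 ± 0.28, adjusted p = 0.00417), though the labels do not pair the libraries. The LPS call was lost without control replicate 1 (adjusted p = 0.162), control replicate 2 (0.131) or LPS replicate 2 (2.04, adjusted p = 0.120), and with limma-voom (0.0634). Exons of the antisense gene Mrnip cover 17.28% of the exonic bases of Sqstm1. Mrnip moved with it, at 2.26 and 3.11 CPM in control, 8.67 and 23.2 CPM in LPS and 3.10 and 8.05 CPM in LPS+HACA, and since the counting is not stated to use strand, reads of the overlap cannot be told apart.

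Tax1bp1, a receptor for aggregates and bacteria that also restrains NF-kB signalling, was at 173 and 180.1 CPM in control, 428 and 294 CPM in LPS and 239 and 225 CPM in LPS+HACA. No group overlapped another. It rose by 1.03 ± 0.23 with LPS (adjusted p = 0.013), and LPS+HACA against LPS gave -0.64 ± 0.23 (adjusted p = 0.106). The LPS call was lost without control replicate 1 (adjusted p = 0.109) or 2 (0.0917) and by library totals (0.42, adjusted p = 0.269). Optn, a receptor for damaged mitochondria and bacteria, was at 3.14 and 5.23 CPM in control, 8.37 and 15.9 CPM in LPS and 2.73 and 9.33 CPM in LPS+HACA. Its log2 difference with LPS, 1.54 ± 0.60, was not called (adjusted p = 0.0911), and 0.4% of its counts lay in protein-coding transcripts.

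**Figure D3:**
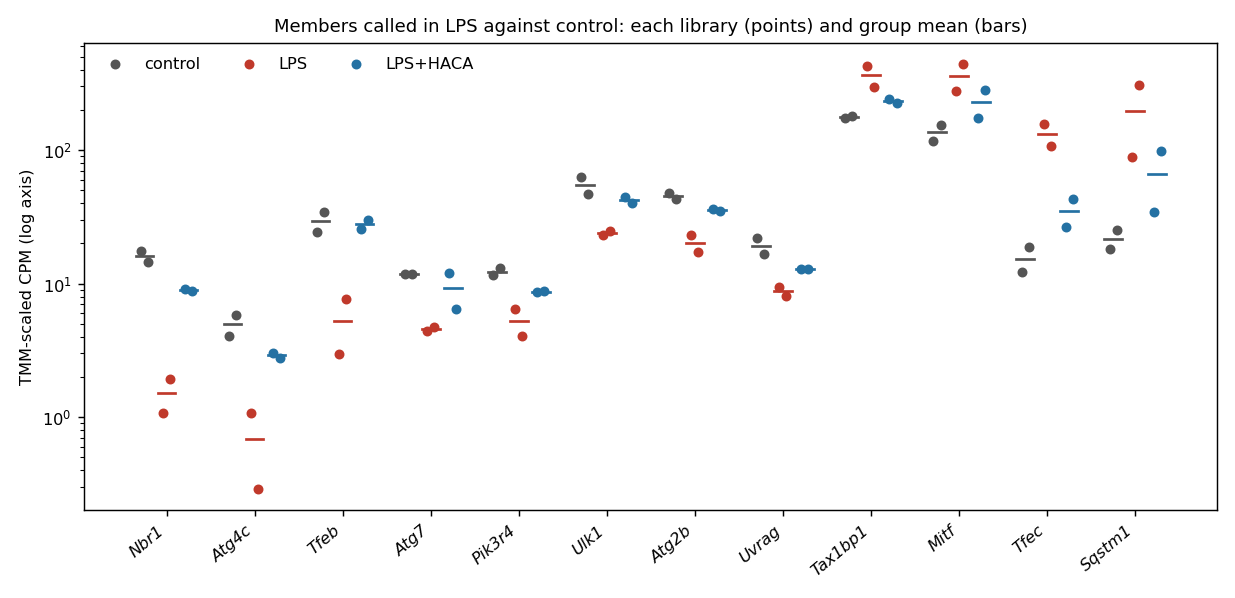
TMM-scaled CPM, on a log axis, of the 12 members called between LPS and control (points are libraries, bars are group means). Nbr1, Atg4c, Tfeb, Atg7, Pik3r4, Ulk1, Atg2b and Uvrag are lower in LPS, while Tax1bp1, Mitf, Tfec and Sqstm1 are higher, and most LPS+HACA points lie between the other groups.

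In the ULK complex 1 of 5 members was called with LPS and none with HACA in the main test. Ulk1 (chr5:110784488-110810097), the kinase that mTORC1 inhibits and AMPK activates, was at 62.4 and 47.0 CPM in control, 23.2 and 24.6 CPM in LPS and 44.5 and 39.8 CPM in LPS+HACA. The 3 groups did not overlap. Ulk1 fell by 1.19 ± 0.24 on the log2 scale with LPS (adjusted p = 0.00799, edgeR), and LPS+HACA against LPS gave 0.82 ± 0.24, just outside the threshold (adjusted p = 0.0579). The latter was called in DESeq2 (adjusted p = 0.0304), with limma on FPKM (0.0328) and by library totals (0.0111). The LPS call was lost without control replicate 1 (adjusted p = 0.0810). Its relative Ulk2 was at 64.4 and 53.0 CPM in control, 39.7 and 24.8 CPM in LPS and 44.2 and 37.6 CPM in LPS+HACA, a log2 difference with LPS of -0.87 ± 0.28 that narrowly missed the threshold (adjusted p = 0.0513). Several alternatives called Ulk2 lower with LPS, among them DESeq2, limma-voom, protein-coding transcripts alone and library totals, while limma on FPKM did not. The scaffold genes Rb1cc1, Atg13 and Atg101 gave -0.25 ± 0.34, -0.74 ± 0.44 and 0.39 ± 0.26, none of them called.

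Of the genes for lipid supply, Atg2b, which encodes a bridge that carries lipids from the endoplasmic reticulum, was at 48.0 and 42.6 CPM in control, 23.1 and 17.2 CPM in LPS and 36.3 and 34.96 CPM in LPS+HACA. No group overlapped another. With HACA against LPS, DESeq2 called Atg2b higher (adjusted p = 0.0312), as did library totals (0.0161). In the main test Atg2b fell by 1.16 ± 0.24 with LPS (adjusted p = 0.00953), and LPS+HACA against LPS gave 0.82 ± 0.24 (adjusted p = 0.0612). The call was lost without control replicate 1 (adjusted p = 0.0779) or 2 (0.0551). Its paralog Atg2a was at 19.8 to 21.2 CPM in control and 21.8 to 28.8 CPM in LPS, a log2 difference of 0.30 ± 0.28 that was not called. Atg9a, the scramblase of the growing membrane, gave 0.98 ± 0.37 (adjusted p = 0.0821) as a gene. Its protein-coding transcript Atg9a-205 gave 1.94 ± 0.47 (adjusted p = 0.011 over 31475 transcripts). Of 6 Atg9a transcripts with at least 20 counts, 2 were higher in LPS with no overlap and 0 lower.

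In the PI3-kinase complex 2 of 6 members fell with LPS and none was called with HACA. Pik3r4, the regulatory subunit VPS15, was at 11.5 and 13.0 CPM in control, 6.50 and 4.05 CPM in LPS and 8.62 and 8.79 CPM in LPS+HACA. Uvrag, the subunit that directs the complex to endosomes and autophagosome maturation, was at 21.8 and 16.7 CPM in control, 9.46 and 8.09 CPM in LPS and 12.9 and 12.8 CPM in LPS+HACA. For both genes LPS was lowest, LPS+HACA in between and no group overlapped another. Pik3r4 gave -1.22 ± 0.31 (adjusted p = 0.022) and Uvrag -1.13 ± 0.26 (adjusted p = 0.015) with LPS. LPS+HACA against LPS gave 0.72 ± 0.31 (adjusted p = 0.163) for Pik3r4 and 0.55 ± 0.26 (adjusted p = 0.2) for Uvrag. The Pik3r4 call was lost without control replicate 1 (adjusted p = 0.0888), control replicate 2 (0.137) or LPS replicate 2 (0.0598), and that of Uvrag without control replicate 1 (0.128) or 2 (0.0560) and with limma on FPKM (0.0616).

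The catalytic subunit Pik3c3 gave -0.50 ± 0.37 with LPS, the shared subunit Becn1 0.45 ± 0.33 and Atg14, the subunit that sends the complex to autophagosome formation, -0.68 ± 0.58, none of them called. Antisense exons of Cntd1 cover 43.93% of Becn1. Ambra1, a positive regulator of Becn1, rested on 5 to 18 reads per library over the 1.18% of its exonic bases that belong to a single transcript, so its value of 1.76 ± 0.82 (adjusted p = 0.142) is poorly determined. The PI3P readers Wipi1 and Wipi2 gave -0.60 ± 0.33 and -0.03 ± 0.25, neither called.

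Of 7 conjugation genes 1 fell. Atg7, the E1-like enzyme that activates both ubiquitin-like proteins of the system, was at 11.8 and 11.7 CPM in control, 4.43 and 4.72 CPM in LPS and 12.0 and 6.49 CPM in LPS+HACA. LPS lay below every other library, and LPS+HACA replicate 1 was at the control level while replicate 2 was closer to LPS. The log2 difference was -1.36 ± 0.35 with LPS (adjusted p = 0.0222) and 1.01 ± 0.35 for LPS+HACA against LPS (adjusted p = 0.095). The latter was called without the low-count filter (adjusted p = 0.0488) and by library totals (0.0211). The LPS call was lost without control replicate 1 (adjusted p = 0.104) or 2 (0.108) and with protein-coding transcripts alone (-1.11, adjusted p = 0.106). Atg3, the E2-like enzyme that attaches ATG8 proteins to lipid, was at 23.2 and 24.1 CPM in control, 39.6 and 34.2 CPM in LPS and 28.2 and 30.8 CPM in LPS+HACA. The groups did not overlap, and the gene gave 0.64 ± 0.22 with LPS (adjusted p = 0.0623), while its transcript Atg3-201 gave 0.78 ± 0.26 (adjusted p = 0.0482). Of 2 Atg3 transcripts with at least 20 counts, 1 was higher in LPS with no overlap.

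The E2-like Atg10, the conjugated pair Atg5 and Atg12, and their partners Atg16l1 and Atg16l2 gave log2 differences with LPS of -0.45 ± 0.48, -0.58 ± 0.29, 0.20 ± 0.24, 0.43 ± 0.23 and -0.25 ± 0.23. None was called in either comparison. Atg16l1 was measured almost only on retained-intron transcripts, with 0.1% of its counts in protein-coding ones.

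ATG4 proteases trim new ATG8 proteins and release them from membranes, and 1 of the 4 genes was called with LPS. Atg4c was at 4.08 and 5.82 CPM in control, 1.08 and 0.289 CPM in LPS and 3.04 and 2.77 CPM in LPS+HACA, from 65 and 88, 11 and 3, and 50 and 41 reads. LPS was lowest and the groups did not overlap. The log2 difference was -2.84 ± 0.57 with LPS (adjusted p = 0.00796) and 2.07 ± 0.57 for LPS+HACA against LPS (adjusted p = 0.0501). The latter was called in DESeq2 (adjusted p = 0.0197), with protein-coding scaling (0.0486), protein-coding transcripts alone (0.0328) and no low-count filter (0.00191). Its transcript Atg4c-201 gave 2.30 ± 0.54 (adjusted p = 0.0214). Of 2 transcripts with at least 20 counts, 1 was higher in LPS+HACA than in LPS with no overlap. The LPS call was lost without control replicate 2 (adjusted p = 0.0614). Atg4a gave 0.96 ± 0.34 with LPS (adjusted p = 0.0683), Atg4b 0.01 ± 0.26 and Atg4d 0.21 ± 0.30, none called. Atg4a shares 1370 words of 50 bases with Atg4a-ps, and antisense exons of Kri1 cover 19.34% of Atg4d.

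No ATG8 gene was called in any comparison with all libraries and TMM scaling. Map1lc3b, which encodes the widely used marker LC3B, was at 37.8 and 35.3 CPM in control, 17.5 and 34.2 CPM in LPS and 23.3 and 32.4 CPM in LPS+HACA, and its LPS libraries lay below control without overlap but differed more from each other than the control libraries did. Its log2 difference was -0.50 ± 0.34 with LPS (adjusted p = 0.305) and 0.10 ± 0.34 for LPS+HACA against LPS (adjusted p = 0.868). Map1lc3b was called lower with LPS by library totals (-1.18, adjusted p = 0.0211) and without LPS replicate 2 (-1.06, adjusted p = 0.0306). Gabarapl1 was at 92.6 and 87.4 CPM in control, 93.5 and 133 CPM in LPS and 79.0 and 121 CPM in LPS+HACA, which gave 0.33 ± 0.28 with LPS (adjusted p = 0.405). The LPS+HACA libraries of Gabarapl1 spanned the range of control and overlapped LPS.

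Gabarapl2 was at 22.8 and 18.4 CPM in control, 25.8 and 28.0 CPM in LPS and 17.8 and 17.3 CPM in LPS+HACA, which gave 0.39 ± 0.24 (adjusted p = 0.252) and -0.62 ± 0.24 (adjusted p = 0.124) in the 2 comparisons. Gabarap was at 8.59 and 7.67 CPM in control, 7.49 and 11.5 CPM in LPS and 7.47 and 7.37 CPM in LPS+HACA, which gave 0.22 ± 0.30 (adjusted p = 0.625) and -0.35 ± 0.30 (adjusted p = 0.471). Map1lc3a was not tested, with 6 reads in each control library, 4 and 2 with LPS, and 7 and 10 with LPS+HACA. By library totals the LPS differences of Gabarap, Gabarapl1 and Gabarapl2 turned to -0.45, -0.33 and -0.26, so no direction is given for them. Map1lc3b shares 279 words of 50 bases with the pseudogene Gm6055, and Gabarapl2 shares 200 with Gm3724, so reads could be split between the copies.

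Because the deposited counts were per transcript, they also show which transcripts stood for each gene. Of all member counts, 97.82% lay in transcripts that own at least 100 bases outside any other transcript, and 0.019% in transcripts that own none. Reads shared between transcripts thus appear to have been mostly left out. The sum of a gene then covers only part of its reads, and the class shares depend on own bases as well as on expression. For 15 of the 40 genes protein-coding transcripts held under 50% of the counts, among them Pik3r4 with 4.7%, Becn1 with 7.1% and Rb1cc1 with 13.2%. Atg13 and Ambra1 had no count in a protein-coding transcript. The share of retained-intron transcripts in the counts of all protein-coding genes was lowest with LPS (6.84% and 6.999%), against 7.79% and 8.83% in control cells and 8.14% and 9.55% with LPS+HACA. Its part in the differences was not tested. With protein-coding transcripts alone the LPS calls of Tfeb, Tfec, Nbr1, Sqstm1, Mitf, Tax1bp1, Ulk1, Atg2b, Uvrag and Atg4c were made again, that of Atg7 was lost, and Pik3r4 was not tested. Nbr1 then rested on 39 counts over all libraries, and Pik3r4 had 36. Tested by transcript, 13 of 147 member transcripts were called higher and 22 lower with LPS, against 26.4% of all transcripts called. For LPS+HACA against LPS 10 were higher and 4 lower, against 11.1%, and against control 0 were called, against 1.4%.

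**Figure D4:**
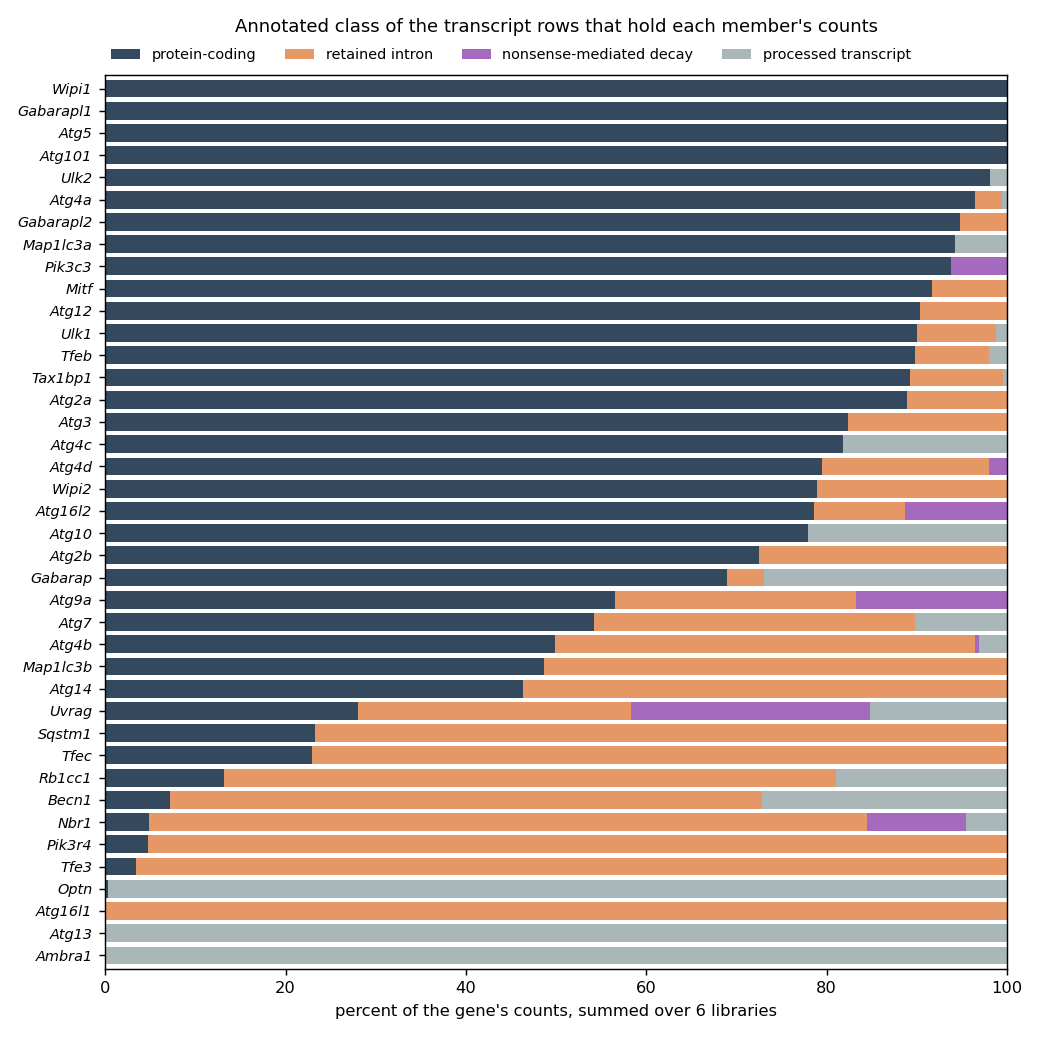
Share of each member's counts, summed over the 6 libraries, that lies in protein-coding, retained-intron, nonsense-mediated decay and processed transcripts, as GENCODE M21 annotates them. Nbr1, Pik3r4 and Tfe3 are held almost wholly by other than protein-coding transcripts, while Ulk1, Tfeb, Mitf and Tax1bp1 are mostly protein-coding.

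Genes connected to the pathway were taken from 5 further lists. Their counts stand beside 15.9% of all genes called higher and 14.3% lower with LPS. With HACA 5.74% of all genes were called higher and 7.67% lower. Of 17 other core and accessory autophagy genes, 3 were called higher and 4 lower with LPS, with a median log2 difference of -0.06 against -0.05 over all genes. The higher ones were the anti-apoptotic Bcl2 (1.88 ± 0.37, adjusted p = 0.00731), Vmp1, a scramblase of autophagosome formation (1.28 ± 0.22, adjusted p = 0.00401), and the kinase Tbk1 (1.13 ± 0.25, adjusted p = 0.0123). Among the lower ones were Trp53inp1 (-2.45 ± 0.46, adjusted p = 0.00603) and Rubcn, which encodes the inhibitor Rubicon (-2.27 ± 0.52, adjusted p = 0.0142). Vmp1 was at 175 and 185 CPM in control, 414 and 461 CPM in LPS and 202 and 265 CPM in LPS+HACA, and was 1 of 2 genes of the list called lower with HACA (-0.91 ± 0.21, adjusted p = 0.0318). Without control replicate 1 the LPS counts were 0 higher and 1 lower, and without control replicate 2 they were 2 and 1. No gene of the list was called with HACA once any 1 of the control or LPS+HACA libraries was left out.

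Of 14 genes for fusion of autophagosomes with lysosomes, 1 was higher and 5 were lower with LPS, with a median of -0.16. Plekhm1, an adaptor that joins Rab7, ATG8 proteins and the HOPS tether, was at 280 and 234 CPM in control, 44.4 and 47.9 CPM in LPS and 146 and 121 CPM in LPS+HACA. The 3 groups stood well apart. Plekhm1 fell by 2.48 ± 0.22 with LPS (adjusted p = 0.000348) and rose by 1.53 ± 0.22 with HACA (adjusted p = 0.00715). The HOPS subunit Vps39 likewise gave -2.27 ± 0.29 (adjusted p = 0.00123) and 1.47 ± 0.28 (adjusted p = 0.0172), and these were the 2 genes of the list called with HACA. The SNARE gene Vamp8 rose with LPS (1.30 ± 0.28, adjusted p = 0.011). Without either control replicate the LPS counts were 0 higher and 2 lower, and without any 1 of the control or LPS+HACA libraries 1 gene was called with HACA.

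Of 15 tested receptors for mitophagy, ER-phagy and other selective routes, 1 was higher and 6 were lower with LPS, with a median of -0.53, and 4 were higher with HACA. Ncoa4, the ferritin receptor, was at 23.7 and 31.4 CPM in control, 7.59 and 7.90 CPM in LPS and 18.6 and 15.2 CPM in LPS+HACA. It gave -1.83 ± 0.27 (adjusted p = 0.00236) with LPS and 1.13 ± 0.27 (adjusted p = 0.0323) with HACA. Tollip rose with LPS (1.03 ± 0.23, adjusted p = 0.0112). Without either control replicate the LPS counts were 0 higher and 3 lower, and without any 1 of the control or LPS+HACA libraries the HACA count was 1.

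Of 33 tested regulators of mTORC1, AMPK and nutrient sensing, 3 were higher and 8 lower with LPS, with a median of -0.53. Rheb, the GTPase that activates mTORC1, was at 56.0 and 55.2 CPM in control, 131 and 159 CPM in LPS and 65.6 and 71.4 CPM in LPS+HACA. It rose by 1.38 ± 0.21 with LPS (adjusted p = 0.00278) and fell by 1.08 ± 0.21 with HACA (adjusted p = 0.018). Rraga, a Rag GTPase that brings mTORC1 to the lysosome, rose as well (0.78 ± 0.20, adjusted p = 0.0208). Inhibitors of mTORC1 moved in both directions. Ddit4, the inhibitor REDD1, gave the largest called rise of the list, from 9.03 and 6.08 CPM in control to 18.2 and 71.9 CPM in LPS (2.57 ± 0.67, adjusted p = 0.0292), with 6.56 and 11.9 CPM in LPS+HACA (-2.29 ± 0.66 with HACA, adjusted p = 0.0681). The sestrin gene Sesn2 gave 2.24 ± 0.68 with LPS and was not called (adjusted p = 0.0539). The arginine sensor gene Castor2 fell with LPS (-2.19 ± 0.57, adjusted p = 0.027). Depdc5, of the GATOR1 complex, and Sesn1, a sestrin that restrains mTORC1, gave -2.32 ± 0.37 (adjusted p = 0.0032) and -2.19 ± 0.32 (adjusted p = 0.0021) with LPS, and 2.08 ± 0.37 (adjusted p = 0.0136) and 1.73 ± 0.31 (adjusted p = 0.0142) with HACA. In all, 3 genes of the list were higher with HACA and 1 lower, and without LPS+HACA replicate 1 none, without LPS+HACA replicate 2 only 1 and without either control replicate 2 were called, all higher. Without either control replicate the LPS counts were 1 higher and 5 lower.

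Of 32 tested lysosomal genes of the CLEAR network, the set that TFEB is known to activate, 2 were higher and 9 lower with LPS, with a median of -0.36. With HACA 4 were higher, with a median of 0.09. The medians of all genes were -0.05 and 0.06. Of all genes, 15.9% were called higher and 14.3% lower with LPS, and 5.74% and 7.67% with HACA. The part of Tfeb in these differences was not tested. Ctsb, Lamp1, Gpnmb and Hexa, which had the most counts of the list, gave -0.05 ± 0.18, 0.03 ± 0.18, -0.10 ± 0.22 and -0.31 ± 0.18 with LPS. None of them was called in either comparison. Psap, the precursor of the saposins, was at 48.2 and 76.9 CPM in control, 5.32 and 6.45 CPM in LPS and 24.4 and 43.6 CPM in LPS+HACA. Both LPS libraries were far below the rest. Psap fell by 3.41 ± 0.39 with LPS (adjusted p = 0.000796) and rose by 2.53 ± 0.37 with HACA (adjusted p = 0.00808). The protective protein gene Ctsa gave -2.33 ± 0.25 (adjusted p = 0.000649) and 1.62 ± 0.25 (adjusted p = 0.00845). Mcoln1, the lysosomal calcium channel, gave -1.88 ± 0.26 (adjusted p = 0.00166) and 1.29 ± 0.25 (adjusted p = 0.0184), but with protein-coding transcripts alone -0.42 and 0.17, neither called. Cln3 and Clcn7 rose with LPS, by 1.29 ± 0.33 (adjusted p = 0.0207) and 1.01 ± 0.32 (adjusted p = 0.0479). The Clcn7 call was at the edge of the threshold and was lost with protein-coding scaling (adjusted p = 0.0508), limma-voom (0.0505), limma on FPKM (0.0767), protein-coding transcripts alone (0.0843) and without either LPS+HACA replicate (0.0590 and 0.0554).

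Without either control replicate the LPS counts of the lysosomal list were 0 higher and 5 or 4 lower, and without any 1 of the control or LPS+HACA libraries 2 genes were called with HACA. No gene of the 5 lists was called between LPS+HACA and control, where the list medians were -0.18, -0.13, -0.43, -0.23 and -0.28 in the order given and that of all genes 0.00. By library totals the counts with LPS became 2 higher and 6 lower, 0 and 7, 0 and 9, 2 and 21, and 0 and 21, and with HACA 4, 6, 7, 12 and 13 genes were higher and none lower. The calls of Plekhm1, Psap and Ctsa in both comparisons held under every alternative run in which the gene was tested. Leaving out either control replicate ended the LPS calls of Rubcn, Tbk1, Vamp8, Tollip, Ddit4, Rraga, Castor2, Cln3 and Clcn7, and leaving out control replicate 1 those of Bcl2 and Vmp1. Leaving out LPS replicate 2 ended the LPS calls of Ddit4 (1.27, adjusted p = 0.0533), Cln3 and Clcn7. With limma-voom that of Ddit4 was lost as well (adjusted p = 0.0689). The HACA calls of Vps39, Ncoa4, Vmp1, Rheb and Mcoln1 were lost whichever control or LPS+HACA library was left out, that of Depdc5 without either LPS+HACA replicate and that of Sesn1 without LPS+HACA replicate 1. Without LPS replicate 1 the core list had 2 genes lower with LPS, the nutrient sensing list had 5 higher with LPS and 3 lower with HACA, and the lysosomal list had 2 lower with HACA. Without LPS replicate 2 the core list had 0 genes lower with HACA, the receptor list had 2 higher with LPS and 1 higher with HACA, and the lysosomal list had 1 higher with LPS. With protein-coding transcripts alone the receptor list had 0 genes called with HACA. By library totals the LPS calls of Tbk1, Vamp8, Tollip, Rraga, Cln3 and Clcn7 and the HACA calls of Vmp1 and Rheb were lost.

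**Figure D5:**
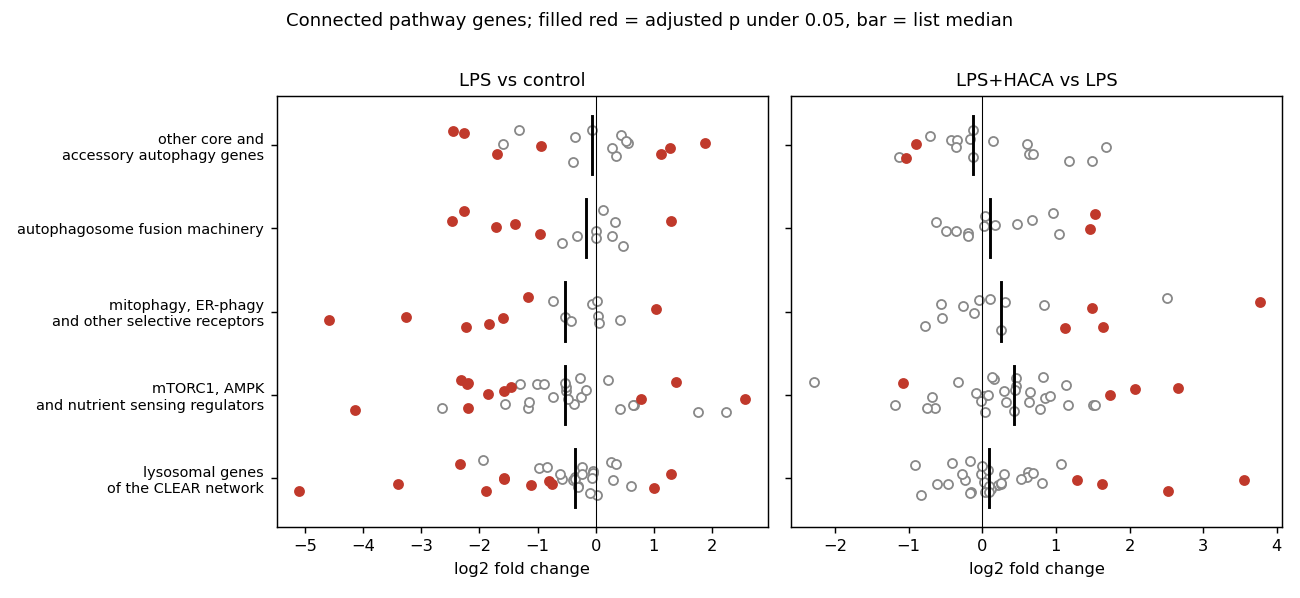
Log2 fold change of each tested gene of the 5 connected lists (points, filled red at an adjusted p under 0.05) with the list median as a vertical bar, for LPS against control and LPS+HACA against LPS. In the left panel the filled points lie mostly below 0, as for Psap at -3.41, and in the right panel mostly above it, as for Psap at 2.53.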

How the data were processed

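Poly-A RNA from 6 macrophage libraries was made into TruSeq libraries and sequenced, per the protocols in the labels. Tools named by the submitters' processing notes, whose roles and order those notes do not give here, are STAR 2.5.4b, Trim Galore, CASAVA, DESeq2 1.26.0, edgeR 3.28.1 and limma; the builds named are GRCh38 and GRCm38. Which program counted the reads, whether it used strand and how it treated reads shared between transcripts is not given in the sources used here. Raw read counts and FPKM values, both per transcript, are what the authors deposited, per the file headers.

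The 142647 transcripts were matched to GENCODE M21 and summed per gene symbol; 1123 did not match (at most 0.115% of a library) and were left out. Genes passing filterByExpr were scaled with TMM factors, and a quasi-likelihood model with the group as its only term was fitted to all 6 libraries with 3 residual degrees of freedom (edgeR 4.0.16, R 4.3.3), with Benjamini-Hochberg adjustment over 17113 genes. CPM are TMM-scaled. The SE of a log2 difference is its size divided by the square root of the F statistic, and may understate the counting error of genes with few counts. The procedure was tested on simulated data, in which far fewer genes were changed than were called in the real comparisons. The Benjamini-Hochberg adjustment is stricter in that setting, so the shares recovered may be lower than in the real data. With LPS the procedure recovered only 2% of the genes changed 2-fold, but 64% of those changed 4-fold. With HACA these shares were 5% and 61%. False calls numbered 11 in each of these comparisons. The total of calls in the simulation is not given here, so 11 does not show what share of its calls was false. That share may be above the one the adjusted p threshold allows, so a call in the real data may be less certain than its adjusted p. Given the low recovery at 2-fold, a gene that was not called may still have changed 2-fold. An absence of calls does not show an absence of change. The comparison of LPS+HACA with control was not part of that test. Alternatives used DESeq2 1.42.0, limma 3.58.1 (voom, and log2(FPKM + 0.1)), other scalings, no filter, protein-coding transcripts alone, the replicate number as a block, and each library left out in turn.

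Members and lists were chosen with earlier results of these data known. Per-library values are given for called members without overlap and for all MiT/TFE and ATG8 genes, and also, chosen after their values were seen, for Ulk2, Optn, Atg3 and Atg2a. Sesn2, and Ctsb, Lamp1, Gpnmb and Hexa of the lysosomal list, were also named after their values were seen. From each list, up to 3 called genes per direction with a mean of at least 5 CPM in the higher group were eligible, by size of change. Start sites and promoters come from RefSeq (GRCm38.p6). Protein sequences were not used here, and 1 eligible list gene is not reported here.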

Additional observations from a re-analysis of the deposited data

How the results depend on the processing

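Tfeb, Tfec and Nbr1 kept their LPS against control call under every alternative run. In the order higher then lower, members called with LPS were 4 and 8. By library totals they were 2 and 15, with 7 higher without the low-count filter, 7 higher in DESeq2 and 8 higher with the replicate block. DESeq2 added Atg3, Atg4a and Optn to the higher members and Ulk2 to the lower ones. With HACA against LPS, 2 and 1 became 10 higher by library totals, 4 and 2 without the filter, 5 and 2 in DESeq2 and 6 and 5 with the replicate block (Atg2b, Atg4c, Atg7, Nbr1, Tfeb and Ulk1 higher, and Mitf, Optn, Sqstm1, Tax1bp1 and Tfec lower). With LPS+HACA against control, 0 higher became 2 without the filter (Sqstm1 and Tfec) and 3 with the block (Mitf, Sqstm1 and Tfec).

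Over all genes, LPS calls of 2715 and 2442 became 1417 and 5111 by library totals and 1447 and 1241 with protein-coding transcripts alone. HACA calls of 983 and 1312 became 3501 and 522 by library totals, 407 and 638 with protein-coding transcripts alone and 1955 and 2356 with the block, with 1845 higher without the filter. LPS+HACA against control, 153 and 44, became 661 and 250 without the filter, 467 and 199 in DESeq2, 84 and 13 with limma on FPKM, 55 and 12 with protein-coding transcripts alone and 628 and 307 with the block, with 24 lower by library totals and 74 lower in limma-voom. Fewer genes were tested with protein-coding transcripts alone (9089), and the cause of the other shifts was not tested.

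Leaving out 1 library at a time gave, for members with LPS, 1 to 5 higher and 3 to 10 lower, with HACA 1 to 5 and 0 to 2, and against control 0. For all genes it gave 1190 to 3024 and 916 to 2817 with LPS, 152 to 1617 and 216 to 1793 with HACA, and 0 to 420 and 0 to 186 against control.

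The values that changed sign were all uncalled. By library totals, LPS gave -0.45 for Gabarap, -0.33 for Gabarapl1 and -0.26 for Gabarapl2, and HACA gave 0.32, 0.48 and 0.033 for these and 0.020 for Mitf. With protein-coding transcripts alone Gabarap was at 0.074 against control. Leaving out 1 library gave, with LPS, -0.12 to 0.50 for Gabarap and -0.67 to 0.20 for Tfe3. With HACA it gave -0.30 to 0.66 for Map1lc3b, -0.52 to 0.12 for Gabarapl1 and -0.28 to 0.58 for Tfe3. Against control it gave -0.83 to 0.028 for Atg7, -0.19 to 0.45 for Gabarapl1, -0.30 to 0.19 for Tfeb and -0.45 to 0.23 for Tfe3.

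The labels give the groups the same replicate numbers but nothing that pairs them. The replicate 1 minus 2 differences correlated across genes at 0.352 (control with LPS), 0.581 (LPS with LPS+HACA) and 0.597 (control with LPS+HACA). The values of Nbr1 (11 and 20 reads in the LPS libraries) and Atg4c (11 and 3) are limited by depth.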
